A study of Drosophila melanogaster with 3 samples.

Results

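The circadian clock genes taken here were 10 genes of the fly's daily timekeeping: per, tim, Clk, cyc, vri, Pdp1, cwo, cry, dco and sgg. They were listed by name, all 10 were found in the annotation, and they were set against all 13945 protein-coding genes on the 6 chromosome arms. The animals were white prepupae of Drosophila melanogaster, taken whole and of both sexes, at the start of metamorphosis, in a transgenic line that stably expresses pdm3 with a C-terminal GFP. All 3 biological replicates belong to that one genotype and stage, with no treatment given and no second group to compare with. The sources used here do not give the hour of collection, the light schedule or the number of animals per replicate. pdm3 is a POU-homeodomain transcription factor, and its sites were mapped by ChIP-seq: an anti-GFP antibody pulled down chromatin that sonication had cut into fragments of 200 to 800 bp. Since whole animals were used, the peaks do not tell in which cells a site was occupied.

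In the fly clock, the proteins of Clk and cyc form an activator that binds E-box sequences and turns on per, tim, vri, Pdp1 and cwo. The proteins of per and tim return to the nucleus and shut that activator off, while vri represses and Pdp1 activates Clk in a second loop. Kinases encoded by dco and sgg set the pace by phosphorylating per and tim proteins, and cry encodes a blue-light photoreceptor that leads to the loss of tim protein. Several of these genes also act outside the clock, sgg in Wnt signalling and dco in the growth of imaginal discs.

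An optimal peak is one that the authors kept after an analysis of reproducibility, and its summit is the base of highest signal. The optimal list on the dm6 build held 8164 peaks, and 36 of their summits lay in a clock gene or within 5 kb of one, which is 0.441% of the list. Of the 10 genes, 8 had at least 1 such summit, against 48.2% of all protein-coding genes. Binding was uneven: vri and Pdp1 had 10 summits each, dco and sgg had 6 each, per, cyc, cry and cwo had 1 each, and tim and Clk had none. The highest peak lay in sgg, with an authors' signal value of 1043, followed by vri with 809, cry with 404 and cyc with 359.7.

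The sequences under the highest summits of the 6 genes with the strongest peaks, from 50 bases before to 50 after the summit on the plus strand, with the summit at position 51, show where the signal culminated. They were read from the RefSeq sequence of dm6, and capitals mark any of the 8 words searched for in these windows. The windows are chrX:2646377-2646477 for sgg, chr2L:5293348-5293448 for vri, chr3R:19211857-19211957 for cry, chr3L:19817995-19818095 for cyc, chr3L:7809659-7809759 for Pdp1 and chr3R:31059179-31059279 for dco. The summits of the Pdp1 and cyc windows lie near other genes' starts, at 116 bp from CG32369 and 78 bp from Fibp. In the vri window TAATTA, the core of many homeodomain sites, and TTGCAT, the reverse complement of ATGCAA, stand in capitals; ATGCAA, part of the octamer known from POU factors, stands in capitals in the cyc window.
sgg: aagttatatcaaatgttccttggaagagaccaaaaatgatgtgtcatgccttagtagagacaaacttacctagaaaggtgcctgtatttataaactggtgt
vri: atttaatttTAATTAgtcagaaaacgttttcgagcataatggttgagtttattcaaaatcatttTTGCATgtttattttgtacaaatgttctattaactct
cry: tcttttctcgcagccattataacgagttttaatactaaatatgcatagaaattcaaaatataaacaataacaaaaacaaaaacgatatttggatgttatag
cyc: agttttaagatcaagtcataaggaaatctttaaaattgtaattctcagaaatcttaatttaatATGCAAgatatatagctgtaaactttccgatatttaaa
Pdp1: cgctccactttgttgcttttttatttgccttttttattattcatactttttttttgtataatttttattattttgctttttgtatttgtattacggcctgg
dco: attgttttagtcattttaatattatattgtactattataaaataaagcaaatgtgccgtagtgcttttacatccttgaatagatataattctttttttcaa
The other 4 windows hold none of the 8 words. Their bases are mostly A and T, with a GC content from 21.8% in dco to 35.6% in sgg.

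A further pair of windows was chosen after their words had been seen, because they are the only clock gene windows with a word known from clock factors. Both belong to Pdp1. At chr3L:7855286-7855386, 212 bp downstream of the start of Pdp1-RB, the E-box CACGTG bound by the Clk and cyc proteins lay 24 bp from the summit. At chr3L:7867628-7867728, 309 bp upstream of the start of Pdp1-RF, the word TTATGTAA, of the kind bound by bZIP factors such as vri and Pdp1, lay 22 bp from the summit, with a GAGAG beside it.
Pdp1 E-box: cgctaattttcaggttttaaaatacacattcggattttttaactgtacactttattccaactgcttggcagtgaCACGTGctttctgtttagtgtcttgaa
Pdp1 bZIP word: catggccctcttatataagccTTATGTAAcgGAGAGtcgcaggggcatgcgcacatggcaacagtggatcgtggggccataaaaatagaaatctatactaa
These were among the weaker peaks of the gene, with signal values of 93.8 and 114.

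The activator pair, Clk and cyc, had 0 and 1 optimal summits. Of all genes with windows of 15 to 40 kb, the class of Clk, 65.1% had a summit. With windows under 15 kb, the class of cyc, 41.7% had one. Clk (FBgn0023076, 3L 7763233 to 7775603, minus strand) had no optimal and no pooled candidate summit in its window. Its only candidate in any list was 1 in replicate 3, at rank 27620 of 30000, downstream of the gene and 991 bp from the start site of Hn, which encodes phenylalanine hydroxylase. No candidate was listed for Clk in replicates 1 and 2. cyc (FBgn0023094, 3L 19813770 to 19815938, minus strand) had 1 optimal peak, with a signal value of 359.7 (3L 19818013 to 19818147). Its summit lay 2107 bp upstream of the cyc start site but 78 bp from the start of Fibp, and the start of Deaf1, which encodes a transcription factor, was also within 1 kb. The peak ranked 1592, 2135 and 4798 in the candidate lists of replicates 1, 2 and 3, so it was lower in replicate 3 than in the other two. The peak of cyc thus stood nearer to its neighbours' promoters than to its own.

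The repressor pair, per and tim, was close to the limit of the optimal list. per (FBgn0003068, X 2685580 to 2692780, plus strand) had 1 optimal peak at X 2685027 to 2685446, with its summit 343 bp upstream of the per-RA start. Its signal value was 100.97, rank 7281 in the optimal list. It ranked 8926, 10048 and 8671 in replicates 1, 2 and 3, beyond the 8164 highest candidates in every replicate. The windows of HLH3B and CG2652 hold the same summit. tim (FBgn0014396, 2L 3493986 to 3508119, minus strand) had no optimal summit but 5 pooled candidates and 5, 8 and 6 candidates in replicates 1, 2 and 3. The highest pooled candidate of tim, 210 bp inside the gene from the tim-RB start, had a signal value of 85.5 and rank 8588, just below the lowest optimal peak at 89.85. Near that place replicates 1, 2 and 3 had candidates at ranks 23266, 8051 and 7403, which lie among the 8164 highest in replicates 2 and 3 but not in replicate 1. A second pooled candidate in an intron of tim had a signal value of 80.1 and rank 9116. Around the limit, the lowest optimal summits of clock genes were in Pdp1 (93.8), vri (100.1) and dco (100.2), and the highest below it were in vri (88.9), tim (85.5) and Pdp1 (84.3).

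**Figure D1:**
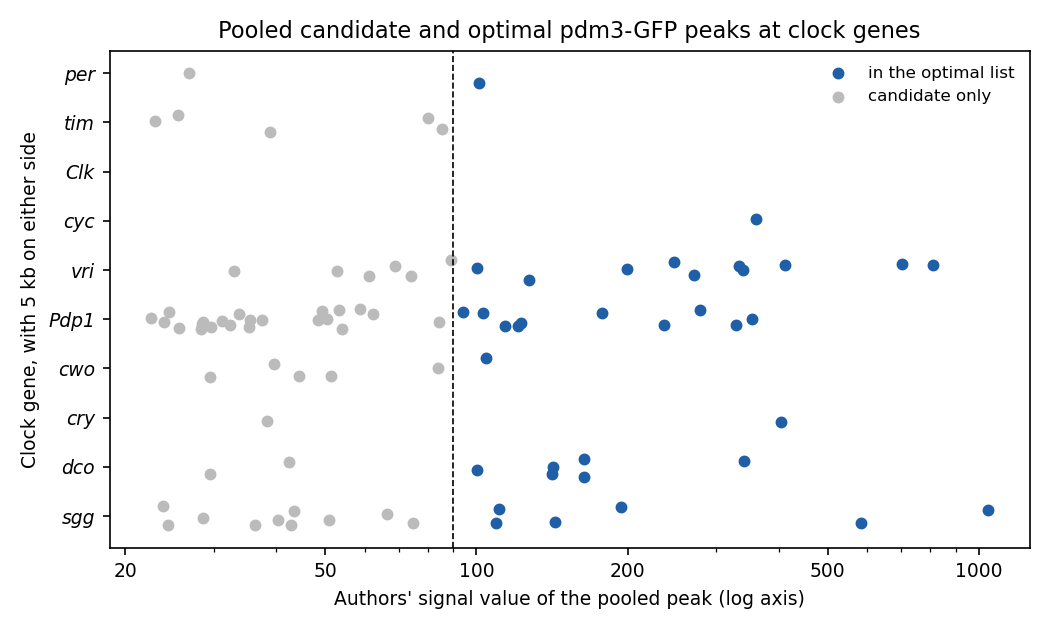
Each point is a pooled peak in a clock gene or within 5 kb, placed by the authors' signal value on a log axis. Blue points are in the optimal list, grey points are candidates only, and the dashed line is the lowest signal value of the optimal list, 89.85. The sgg and vri peaks reach the highest values, tim has grey points only and Clk has no point.

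vri (FBgn0016076, 2L 5288944 to 5311223, plus strand), the bZIP repressor of the second loop, was the most densely occupied of the transcription factor genes. Its 10 summits gave 0.310 per kb, a density above that of 97.3% of all protein-coding genes. By count, 99.1% of all genes had fewer summits, the same share as for Pdp1. That share is not matched for window length. A pair of adjacent peaks led, with signal values of 809 (2L 5293168 to 5293553) and 704 (2L 5292605 to 5292960). Their summits lay in the intron of vri-RE, 4454 and 3802 bp downstream of its start. The first of them ranked 337, 253 and 399 in replicates 1, 2 and 3, and the other 360, 662 and 388, so both were near the top in every replicate. The next had signal values of 411 in the intron, 339.9 at 192 bp from the vri-RC start, 333.5 at 1230 bp upstream of the gene, 271, 248, 199, 127 and 100.1. Of the 10, 8 fell within one stretch of 10 kb from upstream of the gene into that intron. The weakest agreement between replicates was at the peak with 127, which ranked 4726, 14522 and 6597.

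Pdp1 (FBgn0016694, 3L 7811458 to 7867369, minus strand), the bZIP activator of the second loop, also had 10 summits, over a window of 65.9 kb, or 0.152 per kb. The highest had a signal value of 354 (3L 7809580 to 7809837) and was not in Pdp1 but 116 bp from the start of CG32369, downstream of Pdp1. It ranked 1630, 1142 and 1686 in replicates 1, 2 and 3, although replicate 3 covered 47.7% of the peak. The highest inside the gene, at 3L 7850984 to 7851202 with 328.8, lay in an intron 4432 bp downstream of the Pdp1-RB start and ranked 2128, 1413 and 2047. A group of 6 summits spanned the first start site within 10 kb, and 2 of them, with signal values of 279 and 103, lay in CG32365. A pair of overlapping peaks in the intron (237 and 178) shared the same replicate peaks, with ranks of 2088, 3747 and 3045 for both, so they are not separate evidence. The remaining summits had signal values between 93.8 and 123, and 3 of the 10 lay within 1 kb of a Pdp1 start site.

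cwo (FBgn0259938, 3R 10388258 to 10400752, plus strand), a bHLH-Orange repressor of E-box genes, had 1 optimal peak at 3R 10389014 to 10389433. Its summit lay in the 5' UTR, 966 bp from the cwo-RA start, with a signal value of 105. It ranked 8551, 7104 and 6751 in replicates 1, 2 and 3, thus outside the 8164 highest in replicate 1. Among the 8164 optimal summits 46 were classed in a 5' UTR.

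cry (FBgn0025680, 3R 19212154 to 19215442, plus strand), the photoreceptor gene, had a single strong promoter peak at 3R 19211762 to 19212099. Its summit lay 247 bp upstream of the only start site and the signal value was 404, rank 1272 in the optimal list. It ranked 1088, 1259 and 1542 in replicates 1, 2 and 3, a narrow range. The window of vib, which encodes a phosphatidylinositol transfer protein, holds the same summit, but the cry start was the nearest.

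Both kinase genes had 6 summits. dco (FBgn0002413, 3R 31054085 to 31061210, minus strand), which encodes casein kinase 1 (Doubletime), had them within 3529 bp, or 0.350 per kb of its window, a density above that of 98.3% of protein-coding genes. The highest, at 3R 31059070 to 31059320 in an intron 1544 bp downstream of the dco-RE start, had a signal value of 340.2 and ranked 1866, 2424 and 1244. The others had signal values from 100.2 to 164, one of them 301 bp upstream of the dco-RA start. A pair upstream of the gene (163 and 142) shared the same replicate peaks, at ranks of 5458, 2856 and 6471.

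sgg (FBgn0003371, X 2633952 to 2679553, plus strand), the fly GSK3 kinase gene, had all of its summits inside the gene, which has 11 start sites. The highest, at X 2646127 to 2646644, had a signal value of 1043 and rank 185 of 8164. Its summit lay 210 bp upstream of the sgg-RQ start and in an intron of 14 of the 19 transcripts. It ranked 192, 199 and 206 in replicates 1, 2 and 3, a mean of 199 ± 7 (SD, n = 3), so the replicates placed it almost alike. Next to it lay peaks with signal values of 583, ranked 823, 443 and 703, and 194, ranked 2372, 3861 and 2493. The remaining peaks had 143, 111 and 109. The second of them was classed in a coding exon, a class with 16 of the 8164 optimal summits. Its summit lay in an exon of 3 transcripts and in an intron of 14. It ranked 4962, 9839 and 10029 in replicates 1, 2 and 3, among the 8164 highest in replicate 1 only. The highest peaks of 6716 other genes were compared in signal with the leading one of sgg. The nearest had a value of 1044 at rank 184, and it was the highest peak in the windows of Gcn5, eIF2beta and nst, which share it. The windows of sgg and per overlap on the X chromosome but share no optimal summit.

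**Figure D2:**
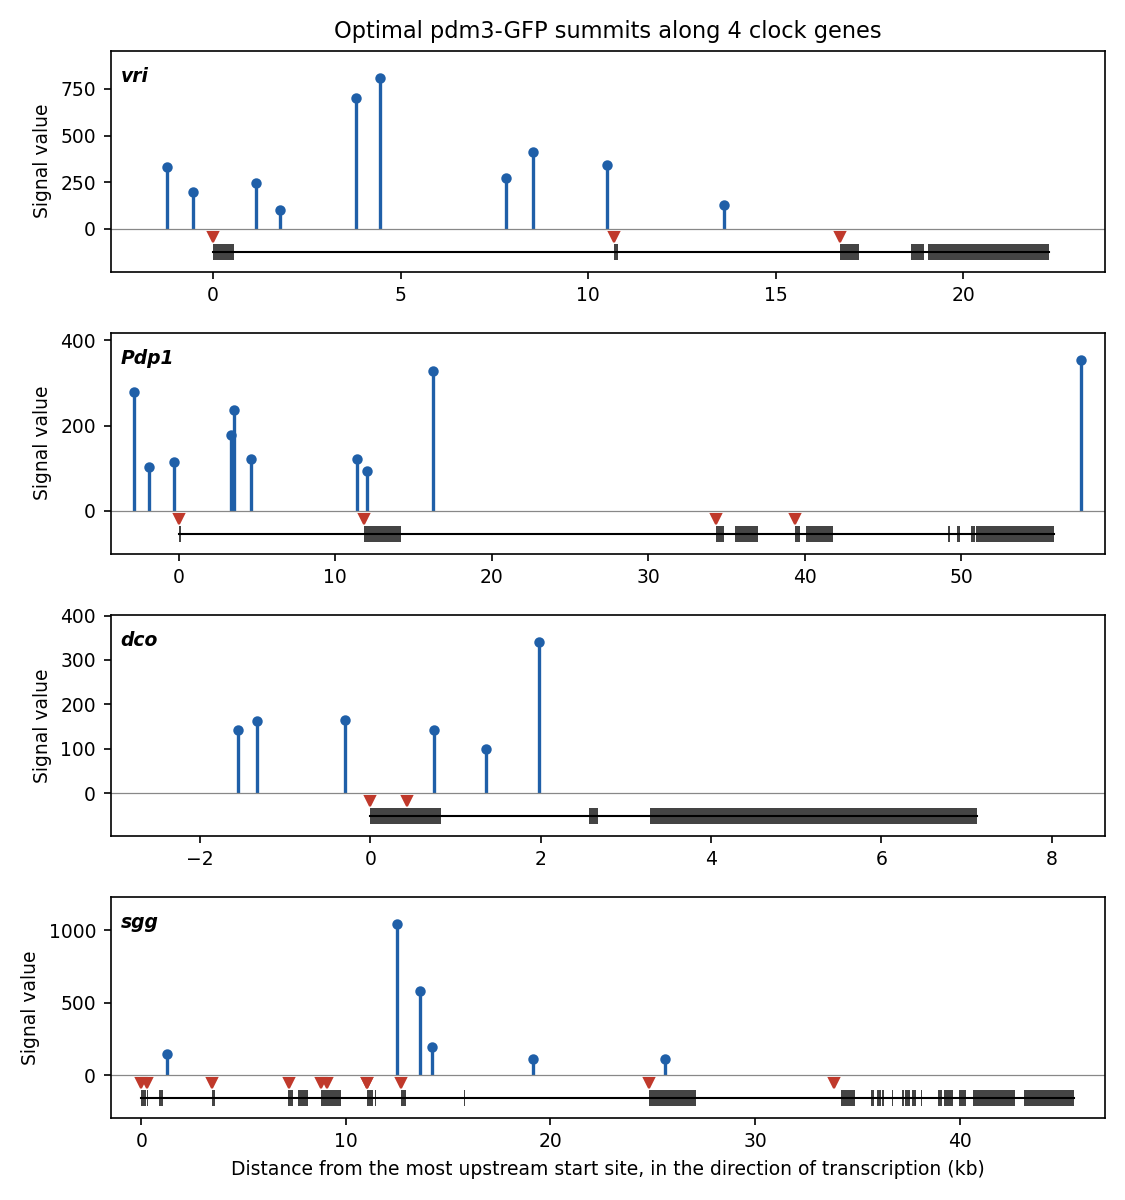
Optimal summits along vri, Pdp1, dco and sgg: height is the authors' signal value, the horizontal axis is the distance in kb from the most upstream start site along the direction of transcription, grey boxes are exons of any transcript and red triangles are start sites. Of the vri summits 8 lie within 10 kb around the first start, the dco summits lie close to both starts, the leading sgg summits stand 12.5 to 14.2 kb into the gene, and the highest Pdp1 summit stands past its end at 57.7 kb.

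The ranks in the replicate lists separated the highest peaks in the clock gene windows into strong and marginal ones. As a mean share of the list, where a small value is a high peak, the highest optimal peak of sgg stood at 0.663 ± 0.0233%, of vri at 1.10 ± 0.244%, of cry at 4.32 ± 0.764% and of Pdp1 at 4.95 ± 0.997% (SD, n = 3 each). That of dco stood at 6.15 ± 1.97% and of cyc at 9.47 ± 5.72%. The peaks of Pdp1 and cyc lay outside these genes, near the starts of CG32369 and Fibp. The highest peak inside Pdp1 stood at 6.21 ± 1.31%, and the highest within 1 kb of a Pdp1 start site at 20.8%. cyc had no optimal peak within 1 kb of its own start. Within the group of cry, Pdp1, dco and cyc, neighbours in this order did not differ beyond the spread. The 3 ranks of sgg lay above all ranks of vri, and those of vri above all of cry. cwo stood at 24.9 ± 3.18% and per at 30.7 ± 2.44%, lower than the others, and their ranks did not overlap.

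**Figure D3:**
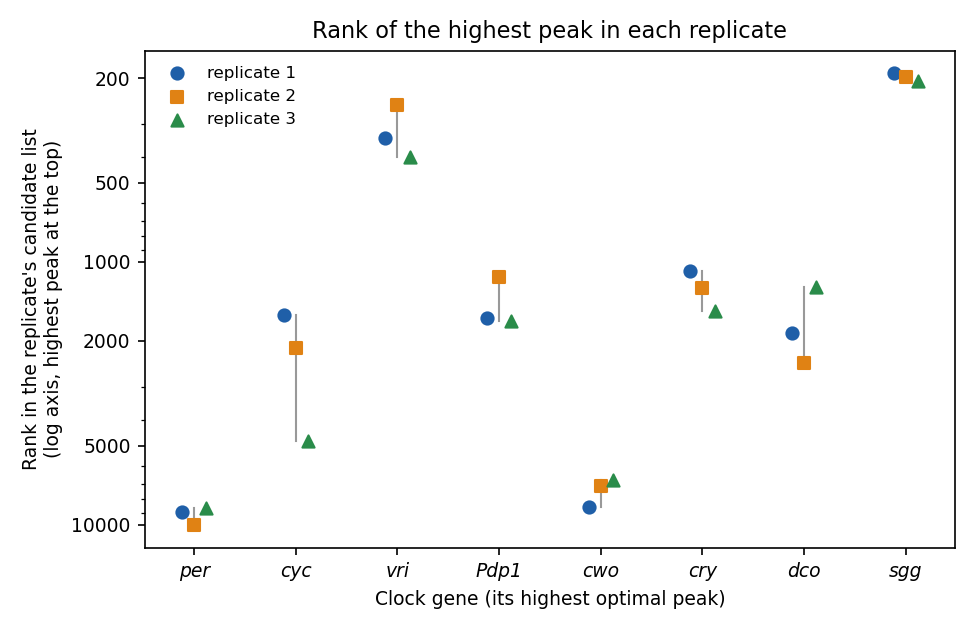
Rank of the highest optimal peak of each bound clock gene in the candidate list of each replicate, on a log axis with the highest peaks at the top; each symbol is a replicate and the line spans them. The 3 ranks of sgg, from 192 to 206, nearly coincide, while those of cyc run from 1592 to 4798 and those of per lie from 8671 to 10048. The peaks of Pdp1 and cyc lie outside these genes, near the starts of CG32369 and Fibp.

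Each replicate list was also read on its own. In the full lists 9, 9 and 10 of the 10 clock genes had a candidate summit in replicates 1, 2 and 3, against 75.2, 75.0 and 77.1% of all genes, and 9 had one in the pooled list, against 69.7%. With each list cut to its 8164 highest peaks the counts were 7, 8 and 8 clock genes, against 51.3, 49.8 and 53.4% of all genes. The number of candidate summits at the clock genes was 85, 86 and 95, a mean of 88.7 ± 5.51 (SD, n = 3). Of the 36 optimal peaks, 33 were covered to at least 50% in all 3 replicate lists, or 91.7%, close to the 91.2% of all optimal peaks. In the lists cut to 8164, 22 of the 36 were covered in all 3, or 61.1%, against 62.3% of all optimal peaks.

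Counting only peaks covered in the top of all 3 lists, 5 clock genes kept a summit, cyc, vri, Pdp1, dco and sgg, against 38.0% of all genes. The peaks of per, cwo and cry were not covered in all 3, and that of cry was covered to 50% in 2 of them although a candidate of high rank overlapped it in each replicate. Inside the gene body alone, 5 had a summit, vri, Pdp1, cwo, dco and sgg, against 14.2% of all genes. Within 1 kb of one of their own start sites, 7 had a summit, all of the 8 bound genes but cyc, against 21.3% of all genes. With the demand on all 3 top lists added, 3 remained, vri, dco and sgg, against 2091 of the 13945 genes. These shares of all genes were not matched for gene length or number of start sites, and sgg alone has 11 start sites. No test was made on these counts, since the genes were listed with earlier results of these data known.

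The median window was 22.4 kb for the clock genes, against 12.2 kb over all genes, so the counts were set beside genes of like length. With windows under 15 kb, both clock genes (cyc and cry) had a summit, against 41.7% of all such genes. With windows of 15 to 40 kb, 4 of 6 had one, against 65.1%, and both missing genes, tim and Clk, belong here. With windows over 40 kb, both Pdp1 and sgg had one, against 78.1%. Per kb of window the clock genes had 0.127 summits, against 0.0670 over all genes. In the classes of rising window length, all genes had 0.0631, 0.0801 and 0.0608. The rate of single clock genes ran from 0 at tim and Clk to 0.310 at vri and 0.350 at dco. vri and dco stood above the 90th percentile of genes of like length, whereas Pdp1, sgg and the others did not.

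**Figure D4:**
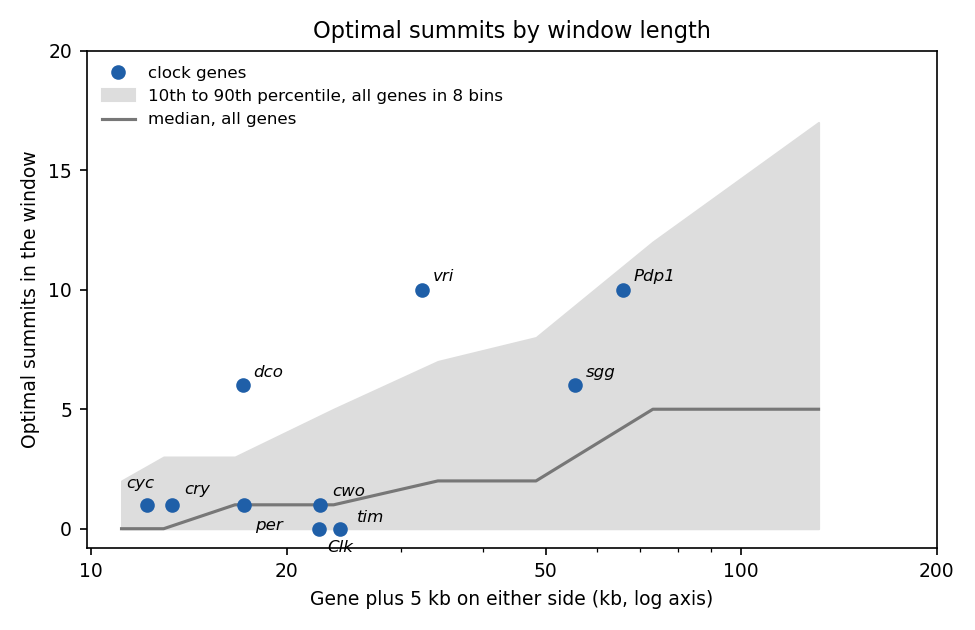
Number of optimal summits in each clock gene window (blue) by window length on a log axis, over the median (line) and the 10th to 90th percentile (grey band) of all protein-coding genes in 8 bins of length. With 6 and 10 summits, dco and vri lie above the band; Pdp1 and sgg lie inside it, as do the genes with 1 or 0.

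The summits at clock genes were then set beside the whole list in position and signal. Of the 36, 12 lay within 500 bp of a start site, 33.3% against 28.0% of all optimal summits, and 18 lay in an intron, 50% against 47.2%. The median signal value was 186, against 173 in the whole list, and 19 of the 36 stood above the median of the list. The median GC content of the windows was 29.7%, against 31.7%.

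The 8 words were sought on both strands of each window. The octamer ATGCAAAT was in 0 of the 36 windows and in 1.59% of all windows, and ATGCAA, which it contains, in 3 windows, or 8.33%, against 10.03%. TAATTA was in 6 windows, or 16.7%, against 10.1%, and in one of them, in an intron of Pdp1, it lay at the summit itself. All 6 windows were at vri or Pdp1. The Pdp1 peak with the word at its summit (178) shares its replicate peaks with an overlapping peak. CACGTG and TTATGTAA were each in 1 window, or 2.78%, against 0.576% and 1.08%, while TTACGTAA, another bZIP word, and TATCGATA, known from the factor DREF, were in 0 against 0.196% and 0.784%. GAGAG, known from the GAGA factor, was in 2 windows, or 5.56%, against 9.62%.

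Beyond the 10 genes, 46 other genes of the clock pathway were looked at in 5 lists, and 32 of them, or 69.6%, had an optimal summit in the gene or within 5 kb. Their median window was 21.8 kb, against 12.2 kb over all genes. A summit was present at 48.2% of all genes. With windows under 15 kb, of 15 to 40 kb and over 40 kb the share was 41.7, 65.1 and 78.1%. The 69.6% of the pathway genes was near the 65.1% of the class holding their median window. They were spread over all of these classes, so no single share matches them in length. When a summit counted only for the nearest gene, 22 of the 46 had one. The share of all genes was not computed under that rule, so the 48.2% does not apply to it. Of 9 kinases and phosphatases 6 had one, with the highest at CkIIbeta (525.9), the regulatory subunit of casein kinase 2, nmo (461), a Nemo-like kinase, and wdb (446), a regulatory subunit of protein phosphatase 2A. CkIalpha and Pp1-87B were without one. Of 6 genes of protein turnover 4 had one, led by jet (880.1), whose F-box protein marks tim protein for degradation, Cul1 (498) and Cul3 (199), both cullins of ubiquitin ligases, while slmb and Usp8 had none. The summits at jet and CkIIbeta were within 500 bp of a start site, but not of their own.

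The counts of the other lists stand beside the same shares, 48.2% of all genes and 41.7, 65.1 and 78.1% in the classes of rising window length. Each of these lists holds windows under 15 kb and over 40 kb. For light and temperature input the count was 7 of 8 genes. norpA, which encodes the phospholipase C of phototransduction, had 1566 and ranked 54, 74 and 61 in the replicates, Rh5, a rhodopsin gene, had 501 and rdgA, a diacylglycerol kinase gene, had 342. Rh6 had none. Among co-regulators, a mixed list of transcription factors, chromatin proteins and RNA-binding proteins, 10 of 11 had a summit. Mef2, which encodes a MADS-box factor, had 2031 and ranked 35, 31 and 37 in the replicates, above every clock gene, Eip75B, an ecdysone-induced nuclear receptor gene, had 1023 and brm, a chromatin remodeller gene, had 837, while lark had none. Of the genes of pacemaker signalling and output 5 of 12 had a summit, or 41.7%, with wake (879.9), Nf1 (645) and Hr38 (355) highest, that of Nf1 near the start of another gene. Pdf, the gene of the neuropeptide of the pacemaker neurons, and na, a sodium leak channel gene, had none.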

How the data were processed

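The candidate lists were derived per replicate, with 1 control file, and from the 3 replicates together, and the optimal list from them by irreproducible discovery rate, per the labels' readme. Aligner, peak caller and threshold were not given in the sources used here. Signal values are as deposited by the authors, with no stated normalization, and rank peaks within a list only. The lists hold no read counts, so depth is unknown, and the control library and the lists on the older build were not analysed here. The optimal list equals the 8164 highest of the 30000 pooled candidates.

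Genes and start sites came from Ensembl release 115 on dm6. A summit counted for every gene whose body or 5 kb flank held it. A replicate rank is that of the highest candidate overlapping a peak, and coverage needed 50% of a peak. Summits took the first class that applied: start site (within 500 bp), UTR at the 5' end, coding exon, UTR at the 3' end, intron, intergenic. All 10 members were named, with every optimal summit. In each pathway list the 3 highest genes and up to 2 without a summit were named. The genes whose highest summit was nearest in signal to that of the leading member were named too. Of 46 pathway symbols 45 matched as written and 1 by synonym. Members and lists were chosen with earlier results of these data known. With 1 group no test was made. Counting was checked on simulated summits. Scripts ran in Python 3.11.15 with pandas 2.3.3, numpy 2.4.6, matplotlib 3.10.9 and scipy 1.17.1.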

Additional observations from a re-analysis of the deposited data

How the results depend on the processing

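The count of 8 clock genes with a summit was 7 to 9 with flanks of 1, 2 or 10 kb and 7 when a summit counted only for the nearest gene. It was 5 in gene bodies alone, 5 with peaks in the top of all 3 replicate lists, and 5 to 6 without 1 replicate, lowest without replicate 2. The share of all genes was 14.2% in gene bodies and 38.0% in the top of all 3 lists. For the other settings of this count it was not computed. The 36 summits came to 19 in the higher-signal 50% of the optimal list, to 22 in the top of all 3 lists and to 24 to 26 without 1 replicate. The 7 genes with a summit near a start site came to 3 in both of those sets and to 4 in each set without 1 replicate. A set without 1 replicate holds the optimal peaks that both remaining lists cover with their 8164 highest candidates, which is a stricter selection. The pathway count of 32 was 20 in gene bodies alone, 22 when a summit counted only for the nearest gene and 27 to 30 without 1 replicate. The share covered in all 3 lists was 100% at 1 bp of overlap, 52.8% at 80% coverage, 61.1% in lists cut to the optimal length and 91.7 to 97.2% without 1 replicate. The share of summits near a start site was 19.4% within 250 bp and 50% within 1 kb. The shares of all optimal summits at these 2 distances were not computed. The mean of 88.7 candidates was 33.3 in cut lists. RefSeq start sites gave the same 7 genes near a start. With only peaks within 1 kb of their own start sites, the highest ranked lower for vri, Pdp1 and dco, at a mean of 5.89, 20.8 and 15.6% of the list. Depth is unknown, so a gene without a peak may lie below detection.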

Other observations

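A few other pathway genes with many summits were singled out after their values were seen. Eip75B had 17 optimal summits in a window of 123.7 kb and 69 pooled candidates. nmo had 11 in 85.1 kb. Neither stood above the 90th percentile of all genes of like length. It was 17 for windows of 100 to 1000 kb and 12 for windows of 60 to 100 kb. Rh5, a small rhodopsin gene, had 7 in a window of 11.7 kb, where the maximum over all genes with windows under 15 kb was 8. Of the Rh5 summits 1 lay within 1 kb of an Rh5 start site, and the highest was classed as intergenic. None of the clock genes with a window under 15 kb had more than 1. Candidates short of the optimal list were present at Mid1 (8 pooled), CkIalpha (6), na (4), slo (4) and to (4), whereas Pp1-87B, Bdbt, slmb, Usp8, Rh6, lark, Pdf, Dh31 and Dh44 had 0 pooled candidates, as had Clk.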
